A study of Mus musculus with 24 samples.

Results

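The genes described here encode proteins that coat lipid droplets, fuse them or control the first step of their breakdown. They are the perilipins Plin2, Plin3, Plin4 and Plin5, the CIDE genes Cidea, Cideb and Cidec, the triglyceride lipase Pnpla2 (ATGL), and G0s2 and Hilpda, whose products inhibit that lipase. All 10 were picked by gene name, and no threshold on their values was used, from the 54532 genes of the deposited count table. The choice was made with earlier results of these data known. Each name matched 1 row of the table, and 9 of the 10 passed the filter on low counts in most comparisons, Cidea being the exception.

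A lipid droplet is a core of triglyceride and cholesterol ester under a single layer of phospholipid, and perilipins sit on that layer. In the liver Plin2 is the main constitutive coat protein, Plin5 is found in tissues that burn fat, and Cidec helps small droplets pass their lipid into larger ones. ATGL starts the release of fatty acids from stored triglyceride, and in fasting these feed mitochondrial oxidation, which for long chains requires Cpt2.

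RNA-seq was performed on the livers of 24 adult males after a 24 h fast. There were 6 groups of 4 livers. Rab30KO mice lack Rab30, a small GTPase of the Golgi, in the whole body, and their wild-type littermates (Rab30 Ctrl) are the controls. Rab30L-/- and Cpt2L-/- mice carry floxed alleles of Rab30 or of Cpt2 that were removed by Cre under the albumin promoter, so that hepatocytes lose the gene and other liver cells keep it. DKO mice lost both genes in this way, and ff;ff mice carry the floxed alleles of both genes without Cre and are labelled as littermates to DKO. No label ties the Cpt2L-/- or Rab30L-/- mice to these litters. Livers labelled Cpt2L-/- or DKO are called livers without Cpt2 in what follows. The study used the Cpt2L-/- background, in which the liver cannot oxidize long-chain fatty acids, to ask what Rab30 does in a fatty, fasted liver. The Cpt2L-/-, DKO and Rab30L-/- livers are all set against the same 4 ff;ff livers, so these comparisons are not independent of each other.

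The libraries held 11801027 to 24497738 counts (median 14358966), and all 36 pairs of libraries within a group differed by more than counting noise. The targeted genes, counted over the whole gene, followed the labels in some comparisons and not in others, so each library is taken by its label. Cpt2 was at 95.3 to 167 CPM (read counts in proportion to the library total, with TMM factors) in the libraries labelled Cpt2L-/- and at 128 to 139 CPM in those labelled ff;ff, and Rab30 was at 122 to 189 CPM in the former and at 25.9 to 44.6 CPM in the latter. In DKO libraries Cpt2 was at 96.1 to 120 CPM, below every ff;ff library and every Rab30L-/- library (170 to 268 CPM), and its log2 fold change against Rab30L-/- was -1.07 (adjusted p = 0.000449 by edgeR). Against ff;ff Cpt2 did not pass in DKO (-0.34, adjusted p = 0.0911) or in Cpt2L-/- (-0.07, adjusted p = 0.788). Rab30 ranged from 101 to 232 CPM in DKO and from 10.4 to 26.6 in Rab30L-/-, and in Rab30KO from 5.39 to 17.4 CPM against 6.64 to 30.1 CPM in Rab30 Ctrl. In DKO against Cpt2L-/- its log2 fold change was 0.15 (adjusted p = 0.763 by edgeR). The paper targeted an exon of Rab30, not the whole gene, and examined its knockout mice by qRT-PCR and immunoblot. Hepatocyte markers (6 genes) were present in every library. Their summed level was 95650 to 122200 CPM in ff;ff, 76870 to 92230 in Rab30L-/-, 44310 to 56410 in Cpt2L-/- and 61860 to 75140 in DKO.

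Upstream sequences are shown for 5 of the genes, 4 that rose in Cpt2L-/- against ff;ff (Plin2, Plin4, Cidec and Hilpda) and Plin5, the neighbour of Plin4, so that the stretch just before each start can be read beside the changes. They are taken from RefSeq's promoter table (GRCm38.p6), run 5′ to 3′ on the strand of the gene, and leave out bases that lie in an annotated exon. Capitals mark the letters AGGTCA, a nuclear receptor half-site, read on either strand.
Plin2, chr4:86670061-86670309, minus strand: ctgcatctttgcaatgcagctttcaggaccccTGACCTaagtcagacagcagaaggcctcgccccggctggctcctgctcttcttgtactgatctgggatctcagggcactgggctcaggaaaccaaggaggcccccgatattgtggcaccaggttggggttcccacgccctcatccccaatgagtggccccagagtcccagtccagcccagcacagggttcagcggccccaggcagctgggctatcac
Plin4, chr17:56109804-56110032, minus strand: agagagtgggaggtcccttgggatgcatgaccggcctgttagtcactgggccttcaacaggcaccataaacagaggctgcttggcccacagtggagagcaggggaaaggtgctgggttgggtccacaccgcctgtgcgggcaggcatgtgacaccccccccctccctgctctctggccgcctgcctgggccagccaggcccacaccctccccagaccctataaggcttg
Plin5, chr17:56117597-56117798, minus strand: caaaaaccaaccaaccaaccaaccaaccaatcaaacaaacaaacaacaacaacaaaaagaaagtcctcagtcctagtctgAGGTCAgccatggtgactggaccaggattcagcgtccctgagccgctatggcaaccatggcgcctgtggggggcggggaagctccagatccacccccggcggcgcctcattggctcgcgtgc
Cidec, chr6:113435761-113436010, minus strand: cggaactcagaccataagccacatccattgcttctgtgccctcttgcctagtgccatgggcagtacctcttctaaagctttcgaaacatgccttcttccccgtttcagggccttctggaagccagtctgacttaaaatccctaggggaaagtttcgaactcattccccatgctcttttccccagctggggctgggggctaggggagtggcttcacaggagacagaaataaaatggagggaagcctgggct
Hilpda, chr6:29272238-29272487, plus strand: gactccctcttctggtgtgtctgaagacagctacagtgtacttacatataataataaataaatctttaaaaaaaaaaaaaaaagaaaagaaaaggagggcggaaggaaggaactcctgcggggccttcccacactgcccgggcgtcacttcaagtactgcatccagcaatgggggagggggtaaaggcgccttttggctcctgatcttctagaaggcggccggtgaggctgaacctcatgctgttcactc
The table held 12 promoters of 9 of the genes, and 32851 promoters in all, each with 250 bases before and 50 bases after the start. AGGTCA was found on either strand for Plin2 and Plin5, that is for 2 of the 9 genes, and in 16.3% of all promoters. The same half-site repeated with 1 base between (2 copies of AGGNCA, the direct repeat bound by Pparα) was found for none of the 9 and in 0.381% of all promoters. ACGTG, the core of a hypoxia response element, was found for Plin2 and Hilpda and in 19.6% of all promoters, and these matches lie partly (Plin2) or wholly (Hilpda) outside the stretches printed. TATAAA was found for Cideb and in 13.6% of all promoters. A match is a description of these letters only, and sites further away were not searched. Plin4 and Plin5 are neighbours on the minus strand of chromosome 17, with 1797 bases between them.

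Levels were compared between genes in FPKM, which divides by gene length. In ff;ff livers Plin2 (154 ± 42.0 FPKM, SD, n = 4), G0s2 (151 ± 117), Plin5 (120 ± 52.8) and Pnpla2 (89.5 ± 37.9) were the most abundant, while Plin4 (9.93 ± 5.31), Plin3 (8.36 ± 3.31) and Hilpda (3.16 ± 1.5) were low. In Cpt2L-/- livers Plin2 stood at 932 ± 173 FPKM, and by its mean it moved from place 302 to place 47 among 22046 protein-coding genes. Cidec moved from 21.4 ± 8.38 FPKM in ff;ff (place 1676) to 245 ± 44.1 in Cpt2L-/- (place 156) and 179 ± 51.1 in DKO (place 233).

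The summed FPKM of the 10 genes was 588 ± 164 (SD, n = 4) in ff;ff, 487 ± 91.7 in Rab30L-/-, 1672 ± 257 in Cpt2L-/- and 1523 ± 225 in DKO. Plin2 alone made up 26.4% of that sum in ff;ff and 55.6% and 55.5% in Cpt2L-/- and DKO. The sum was 356 ± 41.9 in Rab30 Ctrl and 310 ± 42.5 in Rab30KO. In bulk liver RNA, more cells that express a gene and more RNA per cell cannot be told apart.

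**Figure D1:**
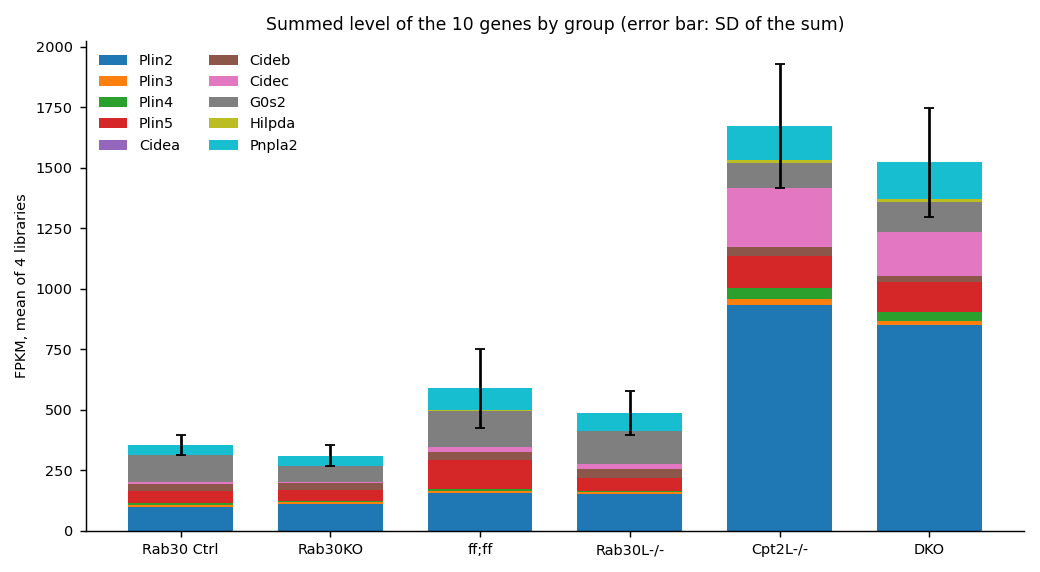
Stacked bars of the mean FPKM of the 10 genes in each of the 6 groups (n = 4 livers each), with the standard deviation of the summed FPKM as error bar. The bars of Cpt2L-/- (1672) and DKO (1523) are the tallest, and Plin2 is the largest share of each.

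The first question was how the droplet genes differ in livers without Cpt2. In Cpt2L-/- against ff;ff, 5 of the 9 tested genes rose (Plin2, Plin3, Plin4, Cidec and Hilpda) and none fell, by edgeR's quasi-likelihood test at an adjusted p below 0.05 and a change of 1.2-fold or more. Of all 13270 genes tested, 23.8% passed in either direction and 11.9% rose. The median log2 fold change of the 9 genes was 1.5, and that of all genes was -0.00348. In DKO against ff;ff, 4 of 9 rose (Plin2, Plin3, Cidec and Hilpda), where 16.1% of all genes passed and 7.87% rose. In DKO against Rab30L-/-, in which both groups lack Rab30 by label, 7 of 9 rose and Cideb fell, where 30.7% of all genes passed and 14.9% rose.

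Among the perilipins, Plin2 (ENSMUSG00000028494, chr4:86648386-86670060, minus strand, in GRCm38 as for all positions) rose in each comparison across Cpt2. Its CPM was 388, 724, 470 and 547 in the ff;ff libraries, in replicate order, and 2668, 2752, 3940 and 3604 in Cpt2L-/-. In DKO it was 2519, 2429, 3663 and 3085 CPM, and in Rab30L-/- 686, 467, 641 and 310. The groups without Cpt2 and those with it did not overlap. By edgeR's test Plin2 rose with a log2 fold change of 2.59 (SE, the standard error, 0.22, 6.03-fold, adjusted p = 6.99e-06) in Cpt2L-/- against ff;ff. The log2 fold change was 2.45 (SE 0.23, adjusted p = 6.28e-05) in DKO against ff;ff and 2.48 (SE 0.26, adjusted p = 7.64e-05) in DKO against Rab30L-/-.

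Plin3 (ENSMUSG00000024197, chr17:56277476-56292873, minus strand), a coat protein that also occurs free in the cytosol, changed less. Its CPM was 18.4, 28.6, 47.6 and 29.7 in ff;ff and 91.1, 82.2, 88.7 and 93.6 in Cpt2L-/-. DKO libraries were at 53.3, 50.3, 84.8 and 70.7 CPM, all above the highest ff;ff library, and overlapped Cpt2L-/- through replicate 3. The log2 fold change was 1.5 (SE 0.23, adjusted p = 0.000469 by edgeR) in Cpt2L-/- and 1.05 (SE 0.27, adjusted p = 0.0218) in DKO against ff;ff. Leaving out 1 library at a time, the latter passed the threshold in 4 of 8 fits, with adjusted p-values up to 0.0601. Against Rab30L-/- it was 0.70 (SE 0.17, adjusted p = 0.00955).

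Plin4 (ENSMUSG00000002831, chr17:56100591-56109803, minus strand), which coats small and nascent droplets, was low in livers with Cpt2. It was at 12.2, 75.2, 75.1 and 62.8 CPM in ff;ff, and at 10.6, 12.9, 18.0 and 11.3 CPM in Rab30L-/-. In Cpt2L-/- it was at 301, 208, 245 and 344 CPM and in DKO at 253, 215, 230 and 111 CPM. The low value of ff;ff replicate 1 lies within the range of Rab30L-/-, whereas the other 3 ff;ff libraries lie above it. The log2 fold change was 2.27 (SE 0.51, 4.83-fold, adjusted p = 0.0127 by edgeR) in Cpt2L-/- against ff;ff and 3.94 (SE 0.28, 15.4-fold, adjusted p = 2.15e-05) in DKO against Rab30L-/-. In DKO against ff;ff it was 1.83 (SE 0.53, adjusted p = 0.0519) and did not pass. It passed there by DESeq2's Wald test (adjusted p = 0.0114), with the fit over all 24 libraries (adjusted p = 0.012), and without ff;ff replicate 1 (adjusted p = 0.00477) or DKO replicate 4 (adjusted p = 0.0477).

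Plin5 (ENSMUSG00000011305, chr17:56111601-56117596, minus strand), which tethers droplets to mitochondria, did not pass against ff;ff in either group without Cpt2. It was at 139, 245, 392 and 208 CPM in ff;ff and at 241, 251, 296 and 287 in Cpt2L-/-. The DKO libraries were at 197, 201, 390 and 238 CPM, within the ff;ff range. The log2 fold change was 0.11 (SE 0.25, adjusted p = 0.788 by edgeR) in Cpt2L-/- and 0.05 (adjusted p = 0.939) in DKO against ff;ff. In Rab30L-/- it was at 185, 107, 115 and 59.7 CPM, all below the DKO libraries. Against this group DKO was higher by 1.14 on the log2 scale (SE 0.35, adjusted p = 0.0345), a call lost without Rab30L-/- replicate 2 (0.0864) or 3 (0.081), without DKO replicate 3 (0.077) or 4 (0.0612), and with no filter on low counts (0.128).

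**Figure D2:**
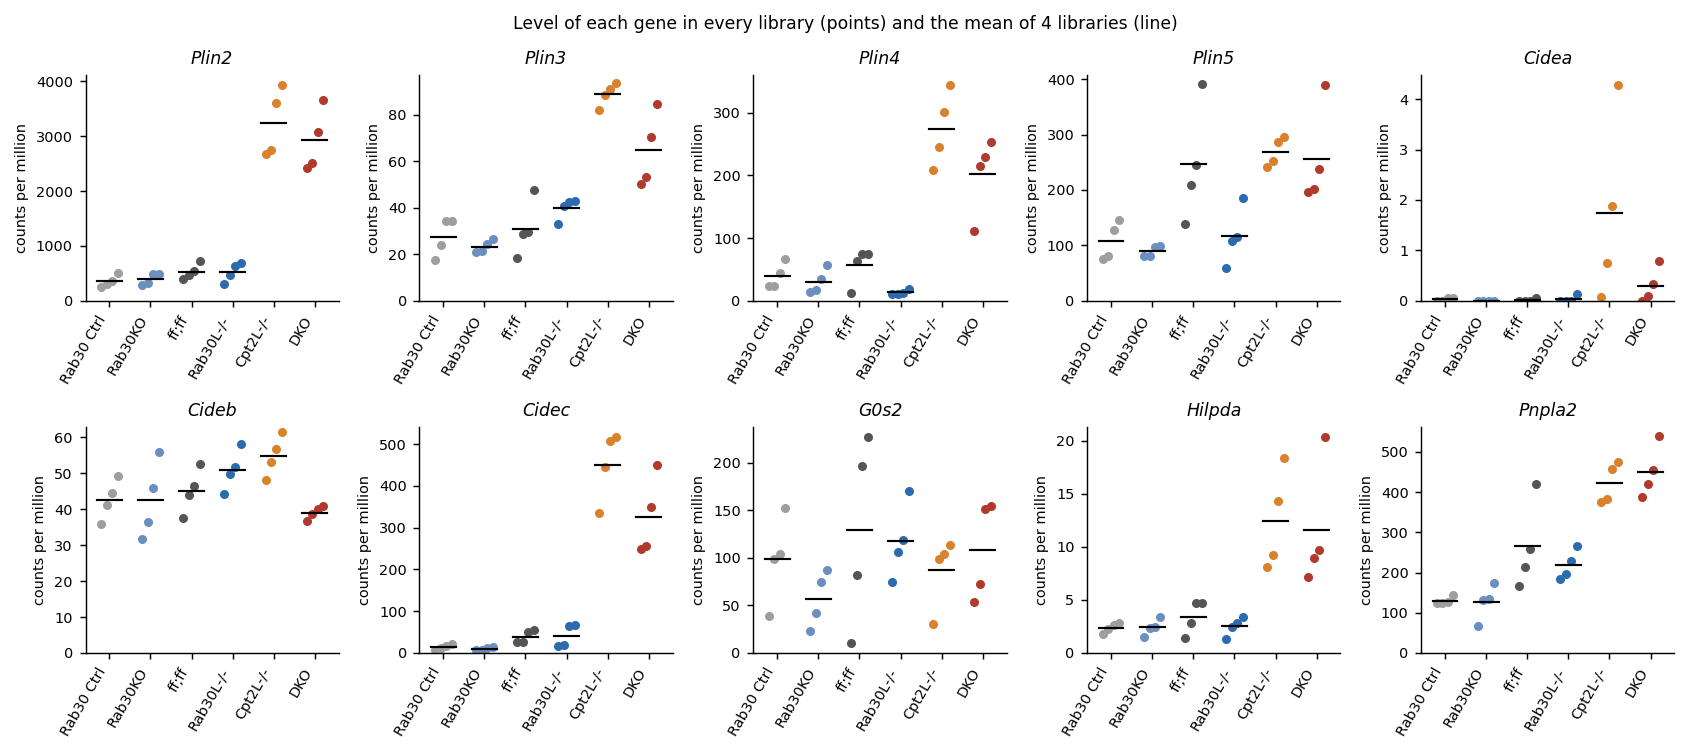
CPM of each of the 10 genes in every library (points, linear axes from 0), by group, with the group mean as a line (n = 4 livers). For Plin2 and Cidec the 8 libraries of Cpt2L-/- and DKO lie above all 16 others, whereas for Plin5, Cideb and G0s2 they overlap them.

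Among the CIDE genes the contrast between members was larger still. Cidec (ENSMUSG00000030278, chr6:113424634-113435760, minus strand), known for droplet fusion and enlargement, was at 26.2, 54.4, 49.2 and 26.0 CPM in ff;ff and at 335, 444, 508 and 516 CPM in Cpt2L-/-. In DKO it was at 256, 250, 450 and 349 CPM, and in Rab30L-/- at 67.7, 16.7, 64.5 and 18.2. The lowest library without Cpt2 was therefore above the highest with it. Cidec rose by a log2 fold change of 3.52 (SE 0.28, 11.4-fold, adjusted p = 4.59e-06 by edgeR) in Cpt2L-/- against ff;ff, the largest of the 9 tested genes. It was 3.05 (SE 0.30, adjusted p = 0.000129) in DKO against ff;ff and 2.97 (SE 0.54, adjusted p = 0.00538) in DKO against Rab30L-/-.

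Cidea (ENSMUSG00000024526, chr18:67343564-67367794, plus strand), a relative of Cidec best known in brown fat, was rare in every group. Its reads were 0, 1, 0 and 0 in ff;ff, 1, 12, 66 and 30 in Cpt2L-/-, 0, 5, 12 and 2 in DKO, 0, 0, 3 and 0 in Rab30L-/-, 1, 1, 0 and 0 in Rab30 Ctrl and 0 in all 4 Rab30KO libraries. Counts of 3 or fewer do not set a level, and this floor covers counting error alone, since reads that carry no molecular identifier may be copies of 1 molecule. By the filter on low counts Cidea was not tested against ff;ff. Tests that kept it gave an adjusted p of 0.00137 by DESeq2's Wald test and 0.0173 by edgeR's without the filter, for Cpt2L-/- against ff;ff, but 0.056 without ff;ff replicate 2. For DKO such tests gave 0.067 and 0.108 against ff;ff, and 0.128 to 0.179 against Rab30L-/-, and none passed. The ff;ff counts are at the floor, so a fitted fold change there gives no bound.

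Cideb (ENSMUSG00000022219, chr14:55754050-55758458, minus strand), which in the liver also takes part in the loading of lipoproteins, is a separate case. It was at 37.6, 52.6, 46.6 and 44.0 CPM in ff;ff and at 53.2, 61.4, 56.9 and 48.2 in Cpt2L-/-. Rab30L-/- libraries were at 49.8, 51.7, 58.0 and 44.1 CPM, and DKO libraries at 40.1, 38.7, 36.6 and 40.8. All 4 DKO libraries were below all libraries of Cpt2L-/- and Rab30L-/-. Its changes against ff;ff did not pass (log2 fold change 0.27, adjusted p = 0.209 in Cpt2L-/- and -0.22, adjusted p = 0.323 in DKO, by edgeR). Cideb fell by 0.38 on the log2 scale in DKO against Rab30L-/- (SE 0.11, adjusted p = 0.023), a call lost in 5 of 8 fits that leave out a library, with no filter (0.0783) and in the fit over all 24 libraries (0.0621). Of the 1488 exon bases of Cideb, 1136 (76.3%) overlap the gene Nop9 on the other strand. The use of strand in the counting is not given in the sources used here, so reads of the 2 genes cannot be told apart. Nop9 did not pass in that comparison (log2 fold change 0.17, adjusted p = 0.316).

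Pnpla2 (ENSMUSG00000025509, chr7:141455198-141460743, plus strand), the lipase, was at 166, 259, 421 and 215 CPM in ff;ff and at 474, 375, 382 and 458 in Cpt2L-/-. In DKO it was at 456, 420, 539 and 389 CPM and in Rab30L-/- at 265, 197, 183 and 228. DKO and Rab30L-/- did not overlap, while ff;ff replicate 3 fell within the range of the livers without Cpt2. It rose by 1.05 on the log2 scale in DKO against Rab30L-/- (SE 0.17, 2.07-fold, adjusted p = 0.000927 by edgeR). Against ff;ff the log2 fold change was 0.66 (SE 0.25, adjusted p = 0.0711) in Cpt2L-/- and 0.76 (SE 0.25, adjusted p = 0.0643) in DKO, and neither passed. Without ff;ff replicate 3 these were called, with adjusted p-values of 0.00165 and 0.00372, as they were by DESeq2's Wald test (0.0464 and 0.0214), with no filter on low counts (0.0176 and 0.0312) and in the fit over all 24 libraries (0.0417 and 0.0268).

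Of the inhibitors of the lipase, Hilpda (ENSMUSG00000043421, chr6:29272488-29275446, plus strand) was at 1.40, 4.73, 4.67 and 2.86 CPM in ff;ff and at 8.07, 9.19, 14.3 and 18.4 in Cpt2L-/-. In DKO it was at 7.19, 8.97, 20.4 and 9.71 CPM, and in Rab30L-/- at 2.87, 2.47, 3.36 and 1.29, so that all 8 libraries without Cpt2 were above these 8 with it. The log2 fold change was 1.84 (SE 0.36, 3.57-fold, adjusted p = 0.00288 by edgeR) in Cpt2L-/- and 1.73 (SE 0.41, adjusted p = 0.0153) in DKO against ff;ff, and 2.19 (SE 0.37, adjusted p = 0.00171) in DKO against Rab30L-/-. In DKO against ff;ff the call was lost without ff;ff replicate 4 (adjusted p = 0.0505). G0s2 (ENSMUSG00000009633, chr1:193272161-193273217, minus strand) was at 82.1, 227, 10.9 and 196 CPM in ff;ff, a range wider than the difference between any 2 group means. It was at 31.0, 98.8, 104 and 114 CPM in Cpt2L-/-, at 151, 155, 53.2 and 72.7 in DKO and at 74.1, 106, 170 and 119 in Rab30L-/-. Its log2 fold change was -0.58 (SE 0.86, adjusted p = 0.682) in Cpt2L-/- and -0.27 (adjusted p = 0.875) in DKO against ff;ff, and -0.11 (adjusted p = 0.857) in DKO against Rab30L-/-.

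The next question was whether loss of Rab30 on the Cpt2L-/- background moved these genes. In DKO against Cpt2L-/-, 1 of the 10 tested genes passed, Cideb, where 2.71% of all genes did, and 4 had an unadjusted p under 0.05, as did 2884 of all 13306. Cideb fell by 0.48 on the log2 scale (SE 0.11, adjusted p = 0.0439 by edgeR's test). The call was lost in each of the 8 fits that leave out a library (adjusted p 0.0624 to 0.124) and in the fit over all 24 libraries (0.131), and the overlap with Nop9 (log2 fold change -0.17, adjusted p = 0.449) applies here too. The others did not pass. Their log2 fold changes were -0.14 for Plin2 (adjusted p = 0.69), -0.45 for Plin3 (adjusted p = 0.135), -0.43 for Plin4 (adjusted p = 0.34), -0.06 for Plin5 (adjusted p = 0.902), -0.46 for Cidec (adjusted p = 0.216), 0.33 for G0s2 (adjusted p = 0.738), -0.10 for Hilpda (adjusted p = 0.902) and 0.10 for Pnpla2 (adjusted p = 0.711). Plin3 passed without DKO replicate 3 (-0.61, adjusted p = 0.0387). Cidea had -2.53 (SE 1.06, adjusted p = 0.207), and from -3.58 to -1.59 with 1 library left out. An interaction over the 16 libraries of ff;ff, Rab30L-/-, Cpt2L-/- and DKO compared the change with loss of Rab30 on the 2 backgrounds. Only Cideb passed (-0.64, standard error 0.18, adjusted p = 0.0464), where 4.06% of all genes did, and the call was lost in 13 of 16 fits that leave out a library. Plin4 had an interaction of 1.68 (SE 0.60, adjusted p = 0.123), and without ff;ff replicate 1 of 2.01 (adjusted p = 0.00424). Plin3 had an interaction of -0.79 (adjusted p = 0.138), and without ff;ff replicate 3 of -1.07 (adjusted p = 0.0235).

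**Figure D3:**
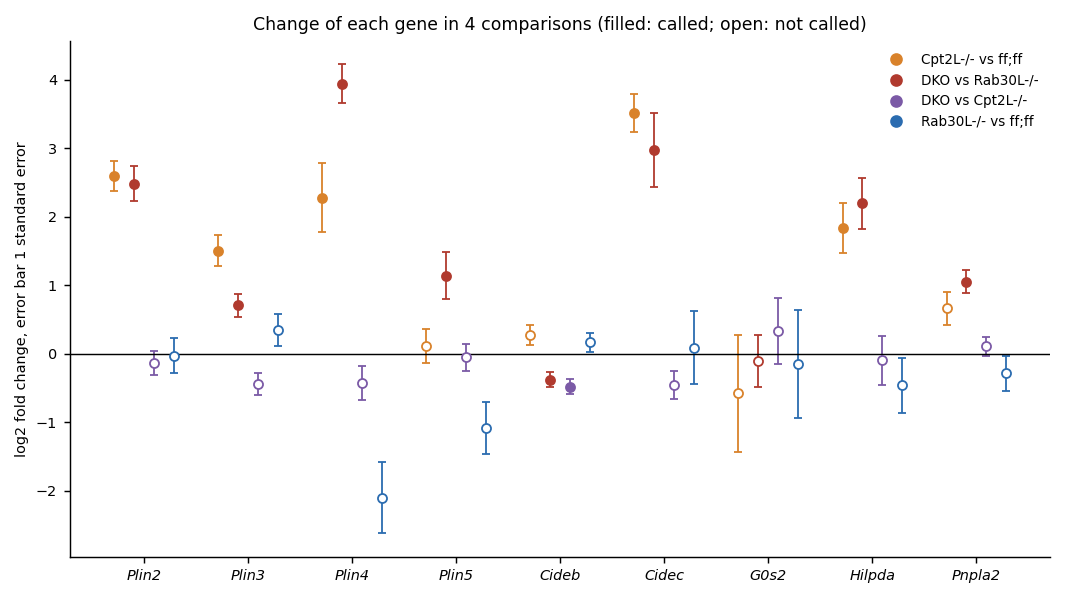
Log2 fold changes (points) with standard errors (bars) of 9 genes in 4 comparisons, filled where the gene passed the thresholds; Cidea is left out. Plin2, Cidec and Hilpda are far above 0 in both comparisons across Cpt2 and near 0 or below in DKO against Cpt2L-/-.

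Deletion of Rab30 alone moved none of them past the thresholds. In Rab30L-/- against ff;ff, 0 of 9 passed by edgeR's quasi-likelihood test, where 0.479% of all genes did, and 2 had an unadjusted p under 0.05, Plin4 and Plin5, as did 1497 of all 13367 genes tested. Plin4 was at -2.11 on the log2 scale (SE 0.52, adjusted p = 0.181), and passed by DESeq2's Wald test (adjusted p = 7.57e-05) and without ff;ff replicate 1 (-2.44, adjusted p = 0.000473). Plin5 was at -1.09 (SE 0.38, adjusted p = 0.321). The other 7 ranged from -0.46 to 0.35. In Rab30KO against Rab30 Ctrl, 0 of 9 passed, by edgeR's or by DESeq2's test, where 0.022% of all genes did, and none had an unadjusted p under 0.05. The log2 fold changes ranged from -0.79 for G0s2 (SE 0.50) to 0.16 for Plin2 (SE 0.25), each with an adjusted p = 1. Plin2 was at 327, 288, 482 and 483 CPM in Rab30KO and at 503, 310, 354 and 241 in Rab30 Ctrl, and Cidec was at 9.63 ± 3.90 and 14.0 ± 5.63 CPM (SD, n = 4).

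Across all 6 groups the order of the mean CPM was led by Cpt2L-/- for Plin2, Plin3, Plin4, Plin5, Cidea, Cideb, Cidec and Hilpda, by DKO for Pnpla2 and by ff;ff for G0s2. The libraries of Cpt2L-/- and DKO overlapped for every gene except Cideb, where 13% of all 13306 genes tested did not overlap. For Plin2, Plin4 and Hilpda, DKO did not overlap the next group below it, ff;ff, and for Plin3 and Cidec it did not overlap Rab30L-/-. Of all genes tested, 20.5% did not overlap, in either direction, between DKO and ff;ff, and 31.5% between DKO and Rab30L-/-. For Plin5 and G0s2 every pair of neighbours in the order overlapped. The same order was given by FPKM for all genes but Cideb.

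Ratios of mRNA levels were taken within each library. The ratio of Plin2 to Plin5 FPKM was 1.42 (0.712 to 1.76 over the 4 libraries) in ff;ff and 2.80 (2.21 to 3.33) in Rab30L-/-. It was 7.12 (6.51 to 7.91) in Cpt2L-/- and 7.02 (5.58 to 7.69) in DKO, with no overlap with the other groups. Plin4 over Plin5 was 0.0802 in ff;ff, 0.0473 in Rab30L-/-, 0.371 in Cpt2L-/- and 0.308 in DKO. Cidec over Cideb was 0.677 (0.473 to 0.847) in ff;ff and 6.65 (5.05 to 8.59) in Cpt2L-/-, and 6.75 (5.13 to 9.85) in DKO. The overlap of Cideb with Nop9 applies to this ratio too, so its absolute size is uncertain. For the lipase, G0s2 over Pnpla2 was 2.0 (0.0902 to 3.17) in ff;ff and 0.736 (0.226 to 0.945) in Cpt2L-/-, which overlap, and Hilpda over Pnpla2 was 0.035 (0.023 to 0.05) and 0.0815 (0.0466 to 0.11), which overlap as well. These ratios are given as a description, without a test.

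**Figure D4:**
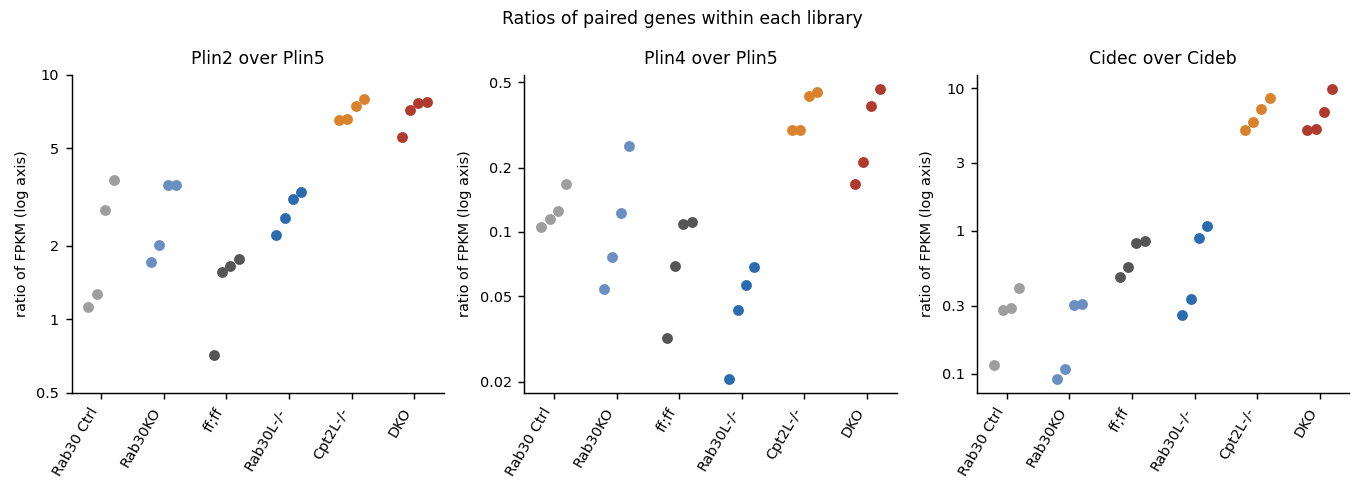
Ratio of FPKM within each library (points, log axis) for Plin2 over Plin5, Plin4 over Plin5 and Cidec over Cideb, by group. For Plin2 over Plin5 and Cidec over Cideb, the 8 libraries of Cpt2L-/- and DKO lie above the other 16. Most exon bases of Cideb overlap Nop9 on the other strand.

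Over the 24 libraries, log2 CPM of Plin2 and Cidec had a Pearson correlation of 0.962, Plin2 and Hilpda of 0.947 and Cidec and Hilpda of 0.915. Within groups, after subtraction of group means, these were 0.739, 0.773 and 0.714. For Plin2 and Plin3 the correlation was 0.853 over all libraries and 0.045 within groups, and for Plin2 and Pnpla2 0.811 and -0.11. The correlations of G0s2 with the other 9 genes ranged from -0.07 to 0.15, and within groups from -0.46 to 0.22. The libraries share their groups, and no p is given. Among 12638 protein-coding genes the 3 most like Plin2 were Prune1 (0.97), Tubb2a (0.968) and Srxn1 (0.964), and those most like Cidec were Psmd4 (0.963), Plin2 (0.962) and Mrpl17 (0.951). For Hilpda they were Baiap2l1 (0.951), Plin2 (0.947) and Dusp3 (0.946), and for Pnpla2 Vars (0.939), Acacb (0.936) and Psmd3 (0.935). Plin4 was most like the carnitine acetyltransferase Crat (0.914), Map4k4 (0.914) and Bcl2l13 (0.908), and Plin5 most like Rnf113a2 (0.922), Cdkn1a (0.92) and Mapkapk2 (0.902). Plin3 was most like Slc12a4 (0.963), Pabpc4 (0.963) and Sqstm1 (0.954), Cideb like Tufm (0.783), Nit1 (0.737) and Sirt2 (0.734), and G0s2 like Mettl7b (0.781), Nudt14 (0.737) and Paqr7 (0.727). For Cidea, with its few reads, they were Shc2 (0.854), Myl12a (0.853) and Def8 (0.835).

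Of 28 other tested genes of droplet formation, lipid synthesis and the droplet surface, 5 rose and 3 fell in Cpt2L-/- against ff;ff, where 23.8% of all genes passed, with a median log2 fold change of -0.16 against -0.00348 over all genes. Fitm1, which buds droplets from the endoplasmic reticulum, rose by 1.60 (adjusted p = 0.00403 by edgeR), and the droplet dehydrogenases Hsd17b11 and Hsd17b13 by 0.96 (adjusted p = 0.00202) and 0.83 (adjusted p = 0.00204). Gpat4, an acyltransferase of triglyceride synthesis, fell by 0.91 on the log2 scale (adjusted p = 0.0033), Mettl7a1 fell by 0.82 (adjusted p = 0.0052) and Ldah fell by 0.47 (adjusted p = 0.0211), the last a call lost in 4 of 8 fits with 1 library left out (up to 0.0631). In DKO against ff;ff, 3 rose and 2 fell, where 16.1% of all genes passed. In DKO against Rab30L-/- 7 rose and 3 fell, where 30.7% of all genes passed. Among them were Hsd17b11 (1.67, adjusted p = 0.000325), Fitm1 (1.40, adjusted p = 0.0199) and Fitm2 (1.34, adjusted p = 9.75e-05), and Mettl7a1 (-0.87, adjusted p = 0.00369), Rnf213 (-0.81, adjusted p = 0.0225) and Aup1 (-0.36, adjusted p = 0.0224). With 1 library left out, the call of Rnf213 was lost in 5 of 8 fits (adjusted p up to 0.0619), that of Aup1 in 3 of 8 (up to 0.0898) and that of Fitm1 in 1 of 8 (0.0582). None passed with loss of Rab30 alone, where 0.479% (Rab30L-/-) and 0.022% (Rab30KO) of all genes did. A positive interaction was found for 2, Fitm2 (0.82, adjusted p = 0.0381) and Vps13a (1.07, adjusted p = 0.0392), where 4.06% of all genes passed.

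Of 24 other lipases and cofactors tested, 6 rose and 6 fell in Cpt2L-/- against ff;ff, where 11.9% of all genes rose and 11.9% fell. In DKO against ff;ff 6 rose and 6 fell too, where 7.87% of all genes rose and 8.24% fell, and in DKO against Rab30L-/- 9 rose and 8 fell, where 14.9% rose and 15.8% fell. In Cpt2L-/- Daglb rose by 1.90 (adjusted p = 1.64e-05 by edgeR), Lipa, the lysosomal acid lipase, by 1.66 (adjusted p = 3.65e-05) and Pnpla7 by 1.19 (adjusted p = 0.000442). The carboxylesterases Ces1b, Ces3b and Ces1c fell by 1.99 (adjusted p = 3.08e-05), by 1.67 (adjusted p = 0.00206) and by 1.16 (adjusted p = 0.000185). In DKO against Rab30L-/- Abhd6 rose by 2.06 (adjusted p = 7.21e-06), Ddhd2 by 1.57 (adjusted p = 0.000111) and Lipa by 1.26 (adjusted p = 0.00016), and Ces3b fell by 1.69 (adjusted p = 0.000316), Ces1b fell by 1.43 (adjusted p = 0.000238) and Lipe, the hormone-sensitive lipase, fell by 1.23 (adjusted p = 0.0304, lost in 4 of 8 fits with 1 library left out, up to 0.0773). In Rab30L-/- against ff;ff 1 rose, Daglb (1.43, adjusted p = 0.021), where 0.479% of all genes passed, and 0 passed in Rab30KO, where 0.022% did. The interaction was positive for 2 (Ces1d, 1.44, and Abhd6, 0.90) and negative for 2 (Daglb, -2.56, and Lipe, -1.73), where 4.06% of all genes passed. DKO against Cpt2L-/- gave 1 droplet gene lower, Fitm1 (-1.27, adjusted p = 0.0325), and 1 lipase each way, Ces1d (1.0, adjusted p = 0.019) and Daglb (-1.13, adjusted p = 0.00264), where 2.71% of all genes passed. With 1 library left out, Fitm1 lost its call in 5 of 8 fits (adjusted p up to 0.101) and Ces1d in 3 of 8 (up to 0.0804).

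Targets of Pparα, the nuclear receptor that drives the fasting response of fat oxidation, were listed for comparison. Of 24 tested, 15 rose, 0 fell and 9 did not pass in Cpt2L-/- against ff;ff, where 11.9% of all genes rose, with a median log2 fold change of 1.12. By the same test 16 rose in DKO against ff;ff, where 7.87% of all genes did, and 19 in DKO against Rab30L-/- (median 1.69), where 14.9% did. None passed in DKO against Cpt2L-/-, where 2.71% of all genes did. Acot2 (3.97, adjusted p = 0.000277 by edgeR), Pdk4 (3.83, adjusted p = 0.00042) and the fatty acid transporter Cd36 (3.40, adjusted p = 2.4e-05) led the list in Cpt2L-/-, and Pdk4 (6.83, adjusted p = 7.77e-07), Acot2 (4.31, adjusted p = 0.00193) and the peroxisomal enzyme Ehhadh (3.23, adjusted p = 0.000824) in DKO against Rab30L-/-. None passed with loss of Rab30 alone, where 0.479% (Rab30L-/-) and 0.022% (Rab30KO) of all genes did, and 1, Pdk4, had an interaction past the threshold (3.01, adjusted p = 0.00677), as 4.06% of all genes did. The list holds no gene of the 10 described here, and whether these are targets of Pparα was not tested.

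Marker genes of other cells were set beside these results. Retn, a gene of fat cells, had no reads in any library, and the summed level of 6 fat cell markers was 0.812 to 3.40 CPM in Cpt2L-/- and 0.781 to 4.90 in DKO against 10.3 to 15.6 in ff;ff. Adrb3, the only one of the 6 tested, made up most of that sum in ff;ff (11.99 ± 2.22 CPM, SD, n = 4, against 1.48 ± 1.11 in Cpt2L-/- and 2.2 ± 1.97 in DKO) and was lower in Cpt2L-/- than in ff;ff (log2 fold change -3.02, adjusted p = 0.00016 by edgeR). Plin1 had 1 to 7 reads in each of the 8 livers without Cpt2, and Cfd had 1 to 7 in each Cpt2L-/- library and 0 to 3 in DKO. Of the ff;ff libraries, replicate 2 had 14 reads of Adipoq, 39 of Cfd, 5 of Plin1 and 3 of Lep, and the other 3 libraries had 0 or 1 of each. Without that library the same 5 genes (Plin2, Plin3, Plin4, Cidec and Hilpda) rose in Cpt2L-/-, and Plin2, Cidec and Hilpda rose in DKO, where Plin3 no longer passed (adjusted p = 0.0585). The Kupffer cell markers summed to 129 to 244 CPM in ff;ff, 105 to 159 in Cpt2L-/-, 109 to 129 in DKO and 177 to 530 in Rab30L-/-, and 3 of 6 were lower in Cpt2L-/- and 2 in DKO against ff;ff, and 5 in DKO against Rab30L-/-. Of the 6 hepatocyte markers, 3 were lower in Cpt2L-/- and 2 in DKO against ff;ff, and 3 in DKO against Rab30L-/-. In these comparisons 11.9%, 8.24% and 15.8% of all genes were lower. Of the bile duct markers 1 was lower in each of the 3 comparisons across Cpt2, of the endothelial markers 1 was lower in Cpt2L-/- against ff;ff and 1 higher in DKO against Rab30L-/-, and of the stellate markers 1 was lower in the latter. Pancreatic genes were too low to be tested. The part of these cell types in the droplet results was not tested.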

How the data were processed

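Liver RNA was extracted with TRIzol and a column kit and sequenced by a company, 4 livers per group. The authors deposited raw read counts per gene, as whole numbers without normalization, and FPKM values, which divide counts by gene length and a scaled library size. The size implied by FPKM was 0.851 (ff;ff replicate 1) to 1.14 (Cpt2L-/- replicate 4) times the total counts of the library. HISAT2, DESeq2 and the builds GRCm38 and mm10 are named in the submitters' processing notes; the counter, the annotation and the use of strand are not given in the sources used here. The authors' tables of fold changes and p-values per comparison, and their table of size-factor normalized values, were not used.

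The libraries of each pair of groups (16 libraries for the interaction) were fitted by themselves with edgeR 4.0.16 in R 4.3.3: filterByExpr, TMM, glmQLFit with robust estimation and glmQLFTest, with Benjamini-Hochberg adjustment over all genes tested. A gene was called at an adjusted p below 0.05 and a change of 1.2-fold or more. The standard error is the log2 fold change divided by the square root of F. CPM used TMM over all 24 libraries. The 10 genes and the lists were chosen with earlier results of these data known. Each list was described by its counts, and its 3 called genes with the largest rise and fall were named in Cpt2L-/- against ff;ff, DKO against Rab30L-/- and DKO against Cpt2L-/-. For each of the 10 genes the 3 protein-coding genes with the highest correlation are named. Genes named for their interaction, and Nop9, were chosen after their values were seen, Nop9 for its overlap with Cideb. The fit was tested on simulated counts. Alternatives were DESeq2 1.42.0's size factors and Wald test, no filter on low counts, a fit over all 24 libraries and each library left out. The p-values measure the spread between these livers. Figures were drawn with matplotlib 3.10.9.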

Additional observations from a re-analysis of the deposited data

Results flagged for a closer look

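Pnpla2 in Rab30 Ctrl replicate 4 stood apart from its group at 143 CPM, with the other 3 libraries between 123.7 and 126.6 CPM. It was the only one of 56 gene and group combinations tested whose extreme library lay this far out, and chance alone flags about 1 in 20. Cideb differed between backgrounds in the effect of Rab30 loss, with an interaction of -0.64 on the log2 scale (standard error 0.18, adjusted p = 0.0464 by edgeR's quasi-likelihood test), which was lost in 13 of 16 fits that leave out a library, and with no filter (0.0958) and in the fit over all 24 libraries (0.0942).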

How the results depend on the processing

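No paired analysis was possible because replicate numbers were given only in accession order. The calls across Cpt2 for Plin2 and Cidec kept their direction and side of the threshold under every alternative run. Over all genes, DKO against Cpt2L-/- gave 360 calls, and 931 by DESeq2's Wald test, 705 with no filter on low counts and 114 over all 24 libraries. Of the 10 genes 1 was called, and 0 over all 24 libraries. Rab30L-/- against ff;ff gave 64 calls, 309 by the Wald test and 240 with no filter, with 0 of the described genes called and 1 by the Wald test. Rab30KO against Rab30 Ctrl gave 3, and 12, 6 and 9 by the Wald test, with no filter and over all 24 libraries. The interaction gave 571, 1062 by the Wald test and 374 over all 24 libraries, and 1 described gene, which was 0 with no filter and over all 24 libraries. The cause was not tested. Leaving out 1 library at a time, calls over all genes ranged from 57 to 445 in DKO against Cpt2L-/- (described genes 0 to 1), from 1485 to 2675 in DKO against ff;ff (2 to 5), from 300 to 679 for the interaction (0 to 2), from 0 to 4 in Rab30KO against Rab30 Ctrl, from 23 to 93 in Rab30L-/- against ff;ff (0 to 1), from 2352 to 3459 in Cpt2L-/- against ff;ff (5 to 7) and from 3204 to 3976 in DKO against Rab30L-/- (6 to 8). Some log2 fold changes turned sign in these fits. In Cpt2L-/- against ff;ff they ranged from -0.23 to 0.036 for Cpt2 and from -0.083 to 0.43 for Plin5. In DKO against Cpt2L-/- they ranged from -0.53 to 0.15 for Hilpda, from -0.34 to 0.051 for Plin5 and from -0.087 to 0.32 for Rab30. In DKO against ff;ff they ranged from -0.65 to 0.16 for G0s2 and from -0.22 to 0.37 for Plin5, and in DKO against Rab30L-/- from -0.33 to 0.12 for G0s2. For the interaction they ranged from -0.058 to 0.61 for Hilpda and from -0.30 to 0.059 for Plin2. In Rab30KO against Rab30 Ctrl they ranged from -0.17 to 0.12 for Cideb, from -0.18 to 0.19 for Hilpda, from -0.21 to 0.16 for Pnpla2 and from -0.66 to 0.35 for Rab30. In Rab30L-/- against ff;ff they ranged from -0.26 to 0.35 for Cidec, from -0.54 to 0.28 for G0s2, from -0.19 to 0.16 for Plin2 and from -0.46 to 0.021 for Pnpla2. No other alternative reversed a direction.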

Other observations

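With Cidea left out, ff;ff replicate 1 had the lowest CPM of its group for 7 genes. On the same count, ff;ff replicate 2 had the highest of its group for 6, and DKO replicate 3 the highest of its group for 6.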
